A study of Rattus norvegicus with 6 samples.

Results

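The genes described here are 7 genes that promote or restrain clotting at the vessel wall: Thbd, Procr, Tfpi and Pros1 on the anticoagulant side, and F3, F8 and Vwf on the procoagulant side. They were taken by gene symbol from the annotation of the array. Each had 1 probeset, so no choice between probesets was needed, and they are 7 of the 15037 genes with a symbol on the array. RNA of endothelial cells from dermal blood vessels of 6 Sprague-Dawley rats was measured, 1 array an animal. The IL-33 knock-out group held animals 28 and 27 (female) and 52 (male), and the wildtype group animals 34 and 45 (female) and 37 (male). All 6 samples were made alike: abdominal skin was digested with collagenase and DNase, cells bearing CD45 or Lyve-1 were removed on magnets, and cells bearing CD31 were kept. The labels give no age of the animals, do not describe the deleted part of Il33 and name no treatment.

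Clotting starts when blood meets tissue factor, which ends in thrombin and fibrin. Healthy endothelium holds this in check. Thrombomodulin catches thrombin and turns it towards activating protein C, the endothelial protein C receptor presents protein C to that complex, protein S helps the activated enzyme, and tissue factor pathway inhibitor blocks the initiating step. Endothelium also makes von Willebrand factor, which tethers platelets and carries factor VIII, so the same cells supply both sides of the balance.

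The start regions are shown first, for those of the 7 genes that had one on record, which were anticoagulant genes only. The RefSeq promoter table (build GRCr8, 250 bases before to 50 after a gene's start) matched 3 of the 7 genes by symbol, with 4 windows: 1 for Procr, 1 for Pros1 and 2 for Tfpi, which has 2 starts. No window is shown for Thbd, F3, F8 and Vwf. Capitals mark the letters of any of 6 motifs on either strand. TGANTCA is the element of AP-1 factors such as Fos and Jun. TATAAA is the TATA box found near some gene starts. GGGCGG is the GC box read by Sp1-like factors, and CACCC the related box read by Kruppel-like factors. AGATAA is a form of the GATA element, and CGGAAG a form of the element of ETS factors such as Erg.
Procr, chr3:164714477-164714776, plus strand: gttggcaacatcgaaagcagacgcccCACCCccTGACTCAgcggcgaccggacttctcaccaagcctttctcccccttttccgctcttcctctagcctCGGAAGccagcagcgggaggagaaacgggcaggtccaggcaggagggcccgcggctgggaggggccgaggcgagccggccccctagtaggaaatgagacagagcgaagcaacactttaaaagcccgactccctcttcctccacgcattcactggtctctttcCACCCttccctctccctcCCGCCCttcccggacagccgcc
Tfpi, chr3:89983494-89983793, minus strand: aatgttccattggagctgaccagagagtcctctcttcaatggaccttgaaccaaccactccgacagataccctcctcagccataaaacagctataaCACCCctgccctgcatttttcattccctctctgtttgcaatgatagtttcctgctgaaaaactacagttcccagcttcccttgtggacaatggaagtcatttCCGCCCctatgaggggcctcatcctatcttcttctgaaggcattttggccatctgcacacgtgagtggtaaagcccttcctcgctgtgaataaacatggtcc
Tfpi, chr3:89980675-89980974, minus strand: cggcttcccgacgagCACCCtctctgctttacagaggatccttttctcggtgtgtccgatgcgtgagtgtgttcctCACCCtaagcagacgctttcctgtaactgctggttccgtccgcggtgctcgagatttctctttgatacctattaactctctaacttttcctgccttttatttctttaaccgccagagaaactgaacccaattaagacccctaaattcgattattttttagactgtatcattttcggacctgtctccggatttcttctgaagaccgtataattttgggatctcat
Pros1, chr11:13677049-13677348, plus strand: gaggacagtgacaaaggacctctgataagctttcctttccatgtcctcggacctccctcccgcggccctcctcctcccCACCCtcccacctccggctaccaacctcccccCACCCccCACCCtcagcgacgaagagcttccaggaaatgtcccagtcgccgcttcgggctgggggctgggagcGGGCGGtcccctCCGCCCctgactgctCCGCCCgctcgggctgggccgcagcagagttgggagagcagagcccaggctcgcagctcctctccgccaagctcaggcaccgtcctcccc

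CACCC was the only one of the 6 motifs in all 4 windows, and 54.9% of the 33469 windows in the table hold it. The AP-1 letters were found in the Procr window alone of the 4, as TGACTCA starting 217 bases before the start, and in 7.33% of all windows. The GC box was in the Procr and Pros1 windows and in 1 of the 2 Tfpi windows, with a share of 33.1% of all windows. The ETS letters were in the Procr window and in 16.6% of all. TATAAA and AGATAA were in none of the 4 windows, against 14.2% and 11.6% of all windows. TATAAA was the only form of the TATA box searched, and AGATAA the only form of the GATA element. Other forms of either in these windows are not marked or counted. In base composition the Procr and Pros1 windows were 64.0% and 69.0% G or C, and the Tfpi windows 48.3% and 45.3%. A match is a run of letters only, and nothing about binding was measured.

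The arrays as a whole set the limits for every gene below. Il33 itself (probeset TC0100003458.rn.2) had log2 expression of 8.07, 8.37 and 9.82 in knockout 28, 27 and 52, against 13.86, 16.32 and 16.6 in wildtype 34, 45 and 37. It was lower in all 3 knockout arrays, whose values were still above the highest background probeset of those arrays (5.42 to 5.50), and where the probes lie relative to the deletion is not given. It was the only one of 11577 genes tested to pass between genotypes, with a log2 difference of -6.84 (SE 0.73, limma adjusted p = 0.0438), and that call was lost in 9 of 18 alternative fits. Endothelial markers were bright in all arrays, the mean of 11 such genes being 15.65 to 15.78 in the knockout and 15.30 to 15.50 in the wildtype. Markers of other skin cells varied between animals. The mean of 6 keratinocyte markers was 8.32 to 11.47 in the knockout and 7.84 to 13.98 in the wildtype, and that of 7 fibroblast markers was 8.60 to 9.76 in the knockout and 8.72 to 11.54 in the wildtype. Both were highest in wildtype 34. Other markers had higher knockout means: 8 of 9 pericyte and smooth muscle genes (median difference 0.61), 5 of 6 lymphatic genes (0.68), 3 of 3 tested erythroid genes (1.68) and 9 of 11 blood endothelial genes (0.34). Lower knockout means were found for 5 of 6 keratinocyte genes (-1.69), 6 of 7 fibroblast genes (-0.71) and 6 of 7 tested leukocyte genes (-0.42). None of these marker genes passed between genotypes, and no marker list separated the groups in its mean except the blood endothelial one. The pericyte list averaged 10.42 to 11.26 in the knockout and 9.46 to 11.22 in the wildtype, the lymphatic list 7.81 to 9.66 in the knockout and 5.99 to 9.37 in the wildtype, and the erythroid list 6.97 to 9.15 in the knockout and 6.01 to 7.64 in the wildtype. The leukocyte list averaged 5.85 to 6.79 in the knockout and 5.81 to 7.59 in the wildtype. Their part in the differences below was not tested, apart from a fit with the keratinocyte median. Of the 6 platelet and megakaryocyte markers on the array 3 were under the filter for dim genes, and the list mean was 3.35 to 3.54 in the knockout and 3.23 to 3.47 in the wildtype. These list means were below the median of the background probesets, which was 4.55 to 4.73 by array. None of the 6 stood at 0, but no probeset reached that level on the deposited scale. The 8 spike-in controls were bright (10.12 to 10.42) on knockout 28 and wildtype 34 and 45, and dimmer (8.82 to 9.33) on knockout 27 and 52 and wildtype 37.

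The comparison of genotypes asks whether IL-33 knock-out endothelium differs from wildtype endothelium in these clotting genes. None of the 7 passed the test, 0 had an unadjusted limma p under 0.05, and the knockout and wildtype values overlapped in all 7. Among all 11577 genes, 0.00864% passed, 1.98% had such an unadjusted p, and 6.25% did not overlap between the groups. The mean was higher in the knockout for 6 of the 7 genes, where 54.0% of all genes were higher. The median difference of the 7 was 0.66 on the log2 scale, against 0.03 over all genes tested. The adjusted p was 0.999 for each of the 7. Bulk RNA cannot tell fewer cells of a type from less RNA per cell, and this holds for every difference given.

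**Figure D1:**
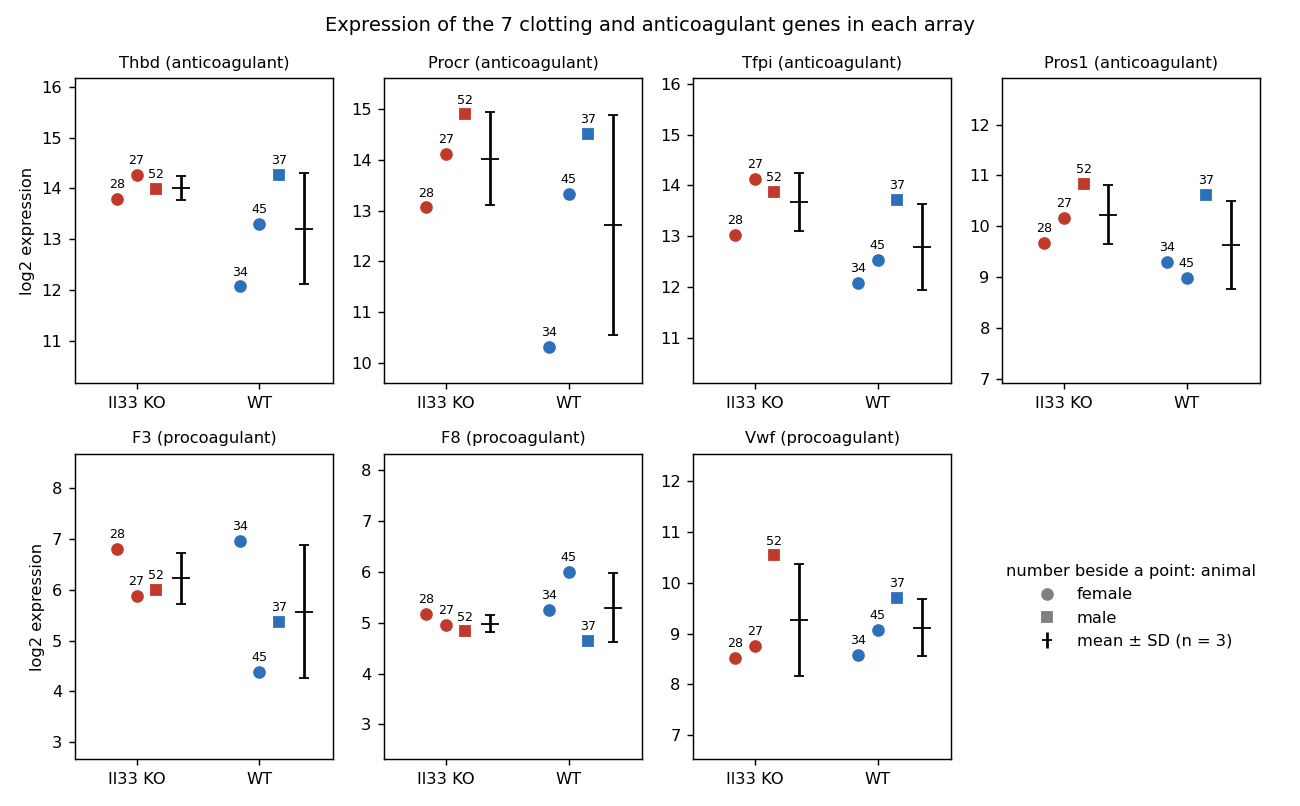
Deposited log2 expression of the 7 genes (vertical axes, each spanning the same number of log2 units) in the Il33 knockout arrays (left, red) and the wildtype arrays (right, blue). Circles are females, squares males, numbers are the animals, and bars are the mean ± SD of 3 arrays. The groups overlap in every panel, and wildtype 34 is the lowest point for Thbd, Procr and Tfpi.

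Of the receptors on the endothelial surface, Thbd, which encodes thrombomodulin, had log2 expression of 13.79, 14.26 and 13.99 in knockout 28, 27 and 52, against 12.07, 13.30 and 14.26 in wildtype 34, 45 and 37. The knockout arrays lay close together, while the wildtype arrays were spread widely and the male wildtype array equalled the highest knockout. The means were 14.01 ± 0.24 in the knockout and 13.21 ± 1.10 in the wildtype (SD, n = 3 each), a difference of 0.80 (SE 0.51, 95% interval -0.35 to 1.95, limma unadjusted p = 0.150). On a linear scale this was 1.75-fold, with an interval of 0.786 to 3.87. Procr, which encodes the endothelial protein C receptor, stood at 13.06, 14.12 and 14.89 in knockout 28, 27 and 52, against 10.31, 13.33 and 14.50 in wildtype 34, 45 and 37. Wildtype 34 was far below the other 5 arrays, and the remaining wildtype values lay within the range of the knockout. Its means were 14.02 ± 0.92 in the knockout and 12.71 ± 2.16 in the wildtype (SD, n = 3 each). The difference of 1.31 had an SE of 0.93, an interval of -0.77 to 3.39 and an unadjusted limma p of 0.189. As a fold it was 2.48, with an interval of 0.588 to 10.5. Its span over the 6 arrays, 4.58, was the widest of the 7 genes.

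Of the secreted or surface-bound inhibitors, Tfpi had log2 expression of 13.03, 14.13 and 13.87 in knockout 28, 27 and 52, against 12.08, 12.54 and 13.72 in wildtype 34, 45 and 37. Both female wildtype arrays were below every knockout array, and the male wildtype array was above knockout 28. The means were 13.68 ± 0.57 in the knockout and 12.78 ± 0.85 in the wildtype (SD, n = 3 each), a difference of 0.90 (SE 0.48, interval -0.19 to 1.98). This gave the smallest unadjusted limma p of the 7 genes, 0.0945, and ranked the gene 600th of 11577. The annotation ties the Tfpi probeset to 2 transcripts, which it does not separate. Pros1, which encodes protein S, read 9.68, 10.16 and 10.84 in knockout 28, 27 and 52, against 9.30, 8.98 and 10.62 in wildtype 34, 45 and 37. Here too the female wildtype arrays were below all knockout arrays, and the male one was not. The difference was 0.59 (SE 0.49, interval -0.51 to 1.69, limma unadjusted p = 0.255).

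Of the procoagulant genes, F3, which encodes tissue factor, the protein that starts clotting, had log2 expression of 6.80, 5.88 and 6.0 in knockout 28, 27 and 52, against 6.96, 4.38 and 5.37 in wildtype 34, 45 and 37. Wildtype 34 held the highest value and wildtype 45 the lowest, so the wildtype range enclosed that of the knockout. The arrays of highest F3, wildtype 34 and knockout 28, also had the highest means of the fibroblast markers, 11.54 and 9.76. They were highest too for the keratinocyte markers (13.98 and 11.47) and the leukocyte markers (7.59 and 6.79). Wildtype 45, lowest in F3, had a fibroblast mean of 9.12, above the 8.60 to 8.72 of the remaining arrays. Which cells the F3 signal came from was not tested. The means were 6.23 ± 0.50 in the knockout and 5.57 ± 1.30 in the wildtype (SD, n = 3 each), and the difference was 0.66 (SE 0.60, interval -0.69 to 2.00, limma unadjusted p = 0.300). The 23 background probesets reached 5.42 to 5.50 in the knockout arrays and 5.36 to 5.87 in the wildtype arrays, and F3 was above the highest of them in 4 of 6 arrays. F8, which encodes the cofactor factor VIII, read 5.17, 4.95 and 4.83 in knockout 28, 27 and 52, against 5.26, 6.0 and 4.64 in wildtype 34, 45 and 37. It was above the highest background probeset in 1 array only, wildtype 45, so its difference of -0.32 (SE 0.40, interval -1.20 to 0.57) was measured at the level of background. Vwf, whose protein tethers platelets at damaged vessel walls, stood at 8.53, 8.76 and 10.54 in knockout 28, 27 and 52, against 8.58, 9.08 and 9.70 in wildtype 34, 45 and 37. In each genotype the male array was the highest. The means were 9.28 ± 1.10 in the knockout and 9.12 ± 0.56 in the wildtype (SD, n = 3 each), with a difference of 0.16 (SE 0.55, interval -1.07 to 1.39). The sign of this difference changed without wildtype 34 (-0.11) and without knockout 52 (-0.48).

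**Figure D2:**
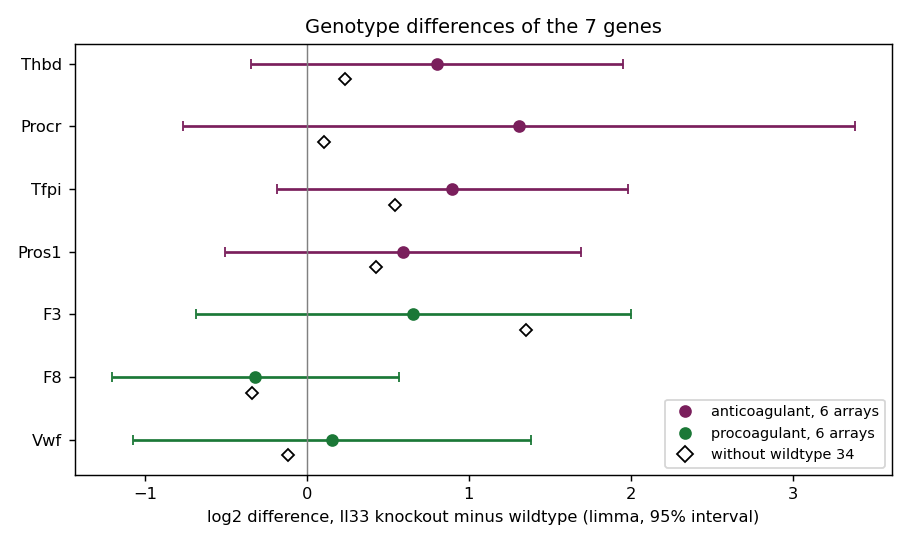
Log2 difference, Il33 knockout minus wildtype, of each gene (filled points, 6 arrays, with the 95% limma interval) and the same difference without wildtype 34 (open diamonds). Every interval includes 0, and without that array Procr is at 0.11 and F3 at 1.35. Both wildtype F3 values left by then are below the highest background probeset of their arrays.

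Set against each other as classes, the 4 anticoagulant genes had differences of 0.59 to 1.31 and a mean difference of 0.90, and the 3 procoagulant genes had -0.32 to 0.66 and a mean of 0.17. The procoagulant mean minus the anticoagulant mean was thus -0.74. Of the procoagulant genes, F8 was at or below the highest background probeset in 5 of the 6 arrays and F3 in 2. Vwf alone of them was above it in all 6, so the procoagulant mean and the contrast rest partly on background signal. With each gene centred on its own mean over the 6 arrays, the anticoagulant genes averaged -0.14, 0.63 and 0.86 in knockout 28, 27 and 52, against -1.59, -0.50 and 0.74 in wildtype 34, 45 and 37. The procoagulant genes averaged 0.09, -0.22 and 0.38 in the same knockout arrays, against 0.19, -0.26 and -0.18 in the wildtype ones. Wildtype 34 thus held by far the lowest anticoagulant mean, while its procoagulant mean was the second highest of the 6. The class values overlapped between genotypes on both sides. These averages describe chosen genes and have no test.

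The contrast between the classes moved with the arrays and terms in the fit. Without wildtype 34 the mean difference was 0.33 for the anticoagulant genes and 0.30 for the procoagulant genes, and the contrast was -0.03. Procr then differed by 0.11, Thbd by 0.23, Tfpi by 0.55 and Pros1 by 0.43, while F3 differed by 1.35 (limma adjusted p = 0.999). The F3 values of wildtype 45 and 37, 4.38 and 5.37, were below the highest background probeset of their arrays, 5.36 and 5.87. That F3 difference, the procoagulant mean and the contrast thus include a wildtype level not above background. Without wildtype 37, the contrast was instead -1.38 and the anticoagulant mean 1.5. Wildtype 34 was the lowest of the 6 arrays for 3 of the 7 genes (Thbd, Procr and Tfpi), as it was for 20.7% of all genes. It also had the highest keratinocyte median, 15.19, against 11.83 and 8.41 in wildtype 45 and 37, and the knockout arrays had 11.61, 8.80 and 8.72. With that median as a covariate, Procr differed by 0.06, Thbd by 0.21, Tfpi by 0.35 and Pros1 by 0.14, F3 by 1.17 (limma adjusted p = 0.999), and the contrast was 0.06. Its part in the differences was not tested beyond this fit. Within the arrays of bright spike-in controls Procr differed by 1.24 and within the dimmer ones by 0.01, Thbd by 1.11 and -0.14, Tfpi by 0.72 and 0.28, and Pros1 by 0.54 and -0.12. The bright set was knockout 28 against wildtype 34 and 45, all female. The dimmer set was knockout 27 and 52 against wildtype 37 and held both males. One genotype thus had a single array in each set, and the parts of spike-in signal, sex and wildtype 34 cannot be told apart here. With the spike-in split as a block and all 6 arrays kept, the anticoagulant mean difference was 0.45, the procoagulant 0.19 and the contrast -0.26.

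**Figure D3:**
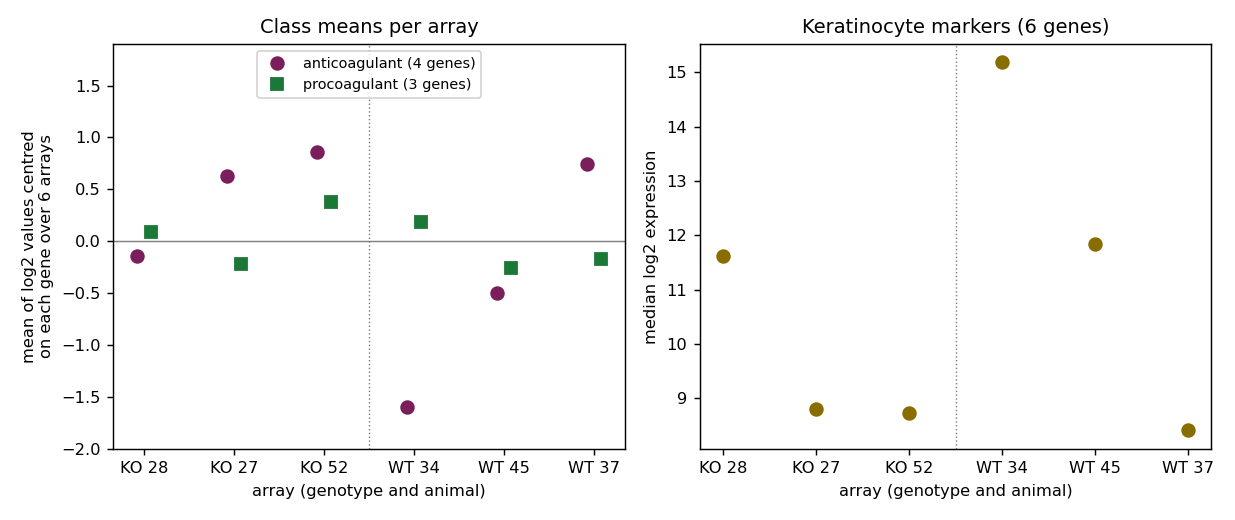
Left, mean of the log2 values of the 4 anticoagulant genes (circles) and the 3 procoagulant genes (squares), each gene centred on its mean over the 6 arrays, by array with knockout arrays first. Right, median log2 expression of 6 keratinocyte markers in the same arrays. Wildtype 34 has the lowest anticoagulant mean, -1.59, and the highest keratinocyte median, 15.19.

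Genotype differences were larger in females than in the male pair for all 4 anticoagulant genes, and the difference between the sexes did not pass. In females Thbd differed by 1.34, Procr by 1.77, Tfpi by 1.27 and Pros1 by 0.78. In the single male pair the same genes differed by -0.27, 0.39, 0.15 and 0.22. The female differences include wildtype 34, the lowest array for Thbd, Procr and Tfpi. For Procr, female wildtype 45 read 13.33, between female knockout 28 (13.06) and 27 (14.12), while wildtype 34 read 10.31. For Thbd, Tfpi and Pros1, wildtype 45 was below both female knockout arrays. The part of wildtype 34 in the contrast of females and males was not tested. The interaction of genotype with sex passed for 0 of the 7 genes and had an unadjusted limma p under 0.05 for 0, where 0% and 1.03% of all genes did. Thbd had the smallest such p of the 7, 0.106 (interaction -1.61, adjusted p = 0.999).

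Between the sexes, 0 of the 7 genes passed with genotype as a covariate, and 0.0259% of all genes passed. Unadjusted limma p-values under 0.05 were found for 3 of the 7 (Vwf, Pros1 and Procr), where 18.6% of all genes had one. In these 3 genes both male arrays were above all 4 female arrays, as for 23.4% of all genes. Vwf was 10.54 and 9.70 in the males (knockout 52 and wildtype 37) and 8.53 to 9.08 in the females with a median of 8.67, a difference of 1.38 (SE 0.36, adjusted p = 0.136). Pros1 was 10.84 and 10.62 in those males and 8.98 to 10.16 in the females, a difference of 1.20 (SE 0.33, adjusted p = 0.145). Procr was 14.89 and 14.50 in those males and 10.31 to 14.12 in the females, a difference of 1.99 (SE 0.74, adjusted p = 0.211). F8 was lower in both males (4.83 and 4.64) than in all females (4.95 to 6.0), as were 8.29% of all genes. With array weights Vwf (limma adjusted p = 0.0382) and Pros1 (0.0411) passed, as did 6.16% of all genes. The weight was 1.86 for each of the male arrays and 0.65 to 0.87 for the female ones. That fit thus leaned most on the arrays that define the sex difference. Both male arrays were among the 3 with dimmer spike-in controls, and they had the lowest keratinocyte medians. The third dimmer array, female knockout 27, had a keratinocyte median of 8.80, near the 8.72 of male knockout 52. It read 8.76 for Vwf, 10.16 for Pros1 and 14.12 for Procr. The part of spike-in signal and keratinocyte RNA in the sex differences was not tested, and there were only 2 males. The lymphatic list averaged 7.81 and 5.99 in those males and 8.69 to 9.66 in the females. Ccl21, a chemokine of lymphatic vessels, was 13.13 and 9.91 in the males (knockout 52 and wildtype 37) and 15.0 to 17.06 in the females. Its difference of -4.49 (limma adjusted p = 0.0322) made it 1 of the 3 genes that passed between the sexes. Pdpn, which encodes podoplanin, differed by -2.94 and Reln, which encodes reelin, by -2.54, without passing (limma adjusted p = 0.0655 each). The part of lymphatic RNA in the sex differences of the 7 genes was not tested.

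Among themselves the 7 genes fell into unlike patterns over the 6 arrays. The measure was the root mean square difference between the centred log2 values of a pair of genes, which is 0 for identical profiles. Of the 21 pairs, Thbd and Tfpi were the most alike (0.315) and Procr and F3 the least (2.08), with a median of 1.06. Over all genes the profile nearest to Thbd was that of Polr2d, an RNA polymerase subunit (0.117), followed by Esam, an endothelial adhesion molecule (0.138), against a median of 0.815 over all genes. The nearest to Procr were the chemokine Ccl2 (0.399) and F2rl1, which encodes a protease-activated receptor (0.403), against a median of 1.5. Esam was lowest in wildtype 34 (12.86, against 14.28 to 15.23 elsewhere), and so were Ccl2 (15.98) and F2rl1 (3.17). These genes were picked for likeness to Thbd or Procr, both lowest in that array, so their low values there are no separate observation.

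For the other members the nearest profiles were Arl6ip1 (0.124) and Mospd1 (0.149) for Tfpi, and Cnnm4 (0.0890) and Dcaf5 (0.0936) for Pros1. F3 was nearest to the basement membrane collagen Col4a1 (0.184) and to Smarca2 (0.225). Vwf was nearest to Atp6v0a1, a subunit of the vesicular proton pump (0.174), and to Ttyh3 (0.184). F8 was nearest to Atg16l2 (0.0559) and Them4 (0.0645), genes of low signal on these arrays. With 6 arrays and 11577 genes, some profiles lie near any given one.

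The wider clotting system was read from gene lists, none of which had a member that passed, and 0 members of the 6 lists had an unadjusted limma p under 0.05. Of the 13 other natural anticoagulants listed, 9 were tested, 6 with a higher and 3 with a lower knockout mean, and the median difference was 0.37. Tfpi2, a relative of Tfpi that inhibits several proteases, had log2 expression of 15.84, 15.64 and 16.74 in knockout 28, 27 and 52, against 12.74, 14.37 and 16.31 in wildtype 34, 45 and 37, and its difference of 1.6 (SE 0.76) did not pass. Entpd1, an ectonucleotidase that removes the platelet agonist ADP, differed by 1.04 (SE 0.58). Both were lowest in wildtype 34, as were Thbd, Procr and Tfpi. Anxa5, which covers the phosphatidylserine on which clotting enzymes assemble, differed by -0.11, and Hs3st1, an enzyme that makes the heparan sulfate site bound by antithrombin, by 0.52.

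The other circulating factors gave little signal. Of the 15 listed, 10 were on the array, and F2, F7, F9, Fga and Fgg were under the filter for dim genes (mean below 3.51). The 5 tested, F12, F10, Klkb1, F13a1 and Fgb, had means of 3.65 to 4.69, all 5 with a lower knockout mean, by 0.03 to 0.79 and a median difference of -0.14. These levels lie within the range of the background probesets, 2.25 to 5.87.

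Receptors and handling proteins gave more signal. Of the 7 receptors for clotting proteases and for protein S, 6 had a higher knockout mean, with a median difference of 0.35. F2r, the main thrombin receptor of endothelium, was 10.62, 11.48 and 11.59 in knockout 28, 27 and 52, against 10.81, 9.41 and 11.25 in wildtype 34, 45 and 37, and the groups overlapped. Mertk, a receptor for protein S and Gas6, differed by 0.91 (SE 0.41, adjusted p = 0.999), and Axl, a receptor for Gas6, by 0.14. Tyro3, another protein S receptor, added after its values were seen, was the 1 with a lower knockout mean, 4.29 against 4.76, within the range of the background probesets. F2rl2 differed by 0.07. Of 16 tested genes that store, export or clear von Willebrand factor and factor VIII, 13 had a higher knockout mean, with a median of 0.24. Selp, the P-selectin stored beside von Willebrand factor, was 12.52, 14.08 and 15.47 in knockout 28, 27 and 52, against 9.99, 15.73 and 14.11 in wildtype 34, 45 and 37. The lowest and the highest Selp value were both in the wildtype. Angpt2 and Cd63, whose proteins share those granules, differed by 1.09 and 0.44, and the membrane fusion protein Snap23 by 0.04.

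The vitamin K cycle equips protein S and other clotting proteins with the residues by which they bind calcium. Its 3 genes differed by -0.17 (Vkorc1), -0.12 (Vkorc1l1) and 0.43 (Ggcx, the carboxylase). Transcription factors described as acting on these genes had a higher knockout mean for 11 of 11 tested, with a median difference of 0.61, where 54.0% of all genes were higher. The 4 of highest signal, Egr1, Fos, Jun and Ets1, differed by 0.05, 0.37, 0.07 and 0.66, and Egr1 lay near the ceiling of the arrays (19.67 to 19.77, where the highest value of an array was 19.7 to 19.9). Ets1 was 15.99, 16.15 and 16.34 in knockout 28, 27 and 52, against 15.28, 15.26 and 15.96 in wildtype 34, 45 and 37. Its lowest knockout value was just above its highest wildtype value, and the gene did not pass. Of the 11 factors, 2 did not overlap between the groups, Ets1 among them, where 6.25% of all genes did not.

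**Figure D4:**
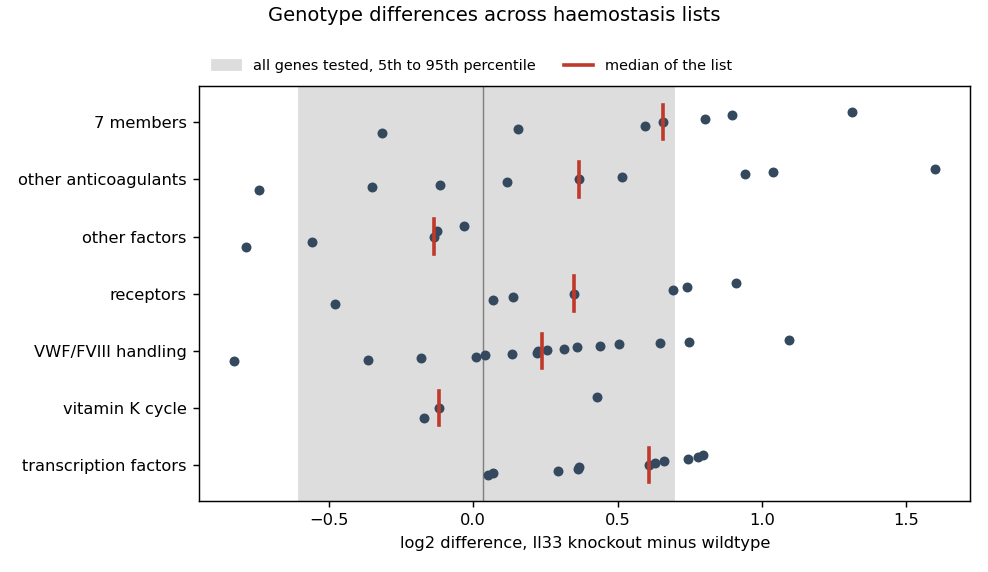
Log2 difference, Il33 knockout minus wildtype, of each tested gene (points) in the 7 members and 6 lists of the clotting system, with list medians (red bars). The grey band runs from the 5th to the 95th percentile of all 11577 genes (-0.60 to 0.70), and the medians run from -0.14 for the other factors to 0.66 for the members.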

How the data were processed

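Biotin-labelled DNA made from total RNA was read on Affymetrix arrays, according to the labels. RMA (in Affymetrix Expression Console, as the submitters' processing notes record) gave the deposited values, read here as log2 expression per probeset. The sources used here give no log base, version, probeset library or genome build, and each difference is in log2 units only if that reading holds. Of 24834 probesets 1646 are controls, and 15049 have a symbol, for 15037 genes (the brightest probeset of each). A gene was dropped as dim if its mean was below 3.51, the 25th percentile of the other probesets, which left 11577 genes, all 7 members among them. Values were not rescaled. The precision is limited by the number of arrays (median SE of a genotype difference 0.39).

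Knockout and wildtype were compared with limma 3.58.1 (R 4.3.3), lmFit and eBayes, two-sided, with Benjamini-Hochberg adjustment over all genes tested and a threshold of 0.05. A fit with both genotype and sex gave the sex differences, and their interaction was added for its own test. Each array is 1 animal. Exact permutation of 3 against 3 cannot go below 0.1 and was not used. The members, lists and tests were chosen with earlier results of these data known. Named from each list are the 4 genes of highest mean and any that passed, and for each member the 2 nearest profiles. Genes on the lists that are not named on the array are not analysed here. Alternatives were other filters, normalizations, variance models and probeset rules, sex, spike-in signal or keratinocyte median as a term, females only, and each array left out.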

Additional observations from a re-analysis of the deposited data

How the results depend on the processing

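The 7 genes were refitted under 18 alternatives each. None passed in any of the 18. By construction 6 of the 18 (2 filters, sex as a term, trend and robust options, 2 probeset rules) leave the differences as they are. In the other 12, 78 of 84 differences kept their sign. The exceptions were Vwf, at -0.17 with the spike-in block, -0.29 with the keratinocyte covariate, -0.18 in females only and -0.48 to 0.53 with an array left out, and F8, at -0.65 to 0.033 with an array left out. The cause was not tested. Procr ranged from 0.06 to 2.20 and the contrast of classes from -1.38 to 0.06 (-1.38 to -0.03 with an array left out). Without wildtype 37, 4 of the 7 had an unadjusted limma p under 0.05, as did 8.37% of all genes. Il33 was -6.84 without the filter (adjusted p = 0.0854), with the filter at the 50th percentile (0.0539) and with each probeset on its own (0.0776), -6.87 in females only (0.131), and -7.71 to -6.34 with an array left out, where the call was lost in 5 of 6 fits (0.0676 to 0.654) and kept without wildtype 34 (0.00193). In each of those first 4 settings 0 genes passed, and 0 to 1 with an array left out. Between sexes 29 genes passed with median centring, 26 with trend and robust options, 713 with array weights (2 of the 7 members) and 2 to 74 with an array left out, against 3. No paired analysis was possible because the groups share no animal numbers. Signal near background limits F8 and, in 2 arrays, F3.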
